A study of Mus musculus with 26 samples.

Results

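The nuclear-encoded subunits of the respiratory chain were examined in brown adipose tissue (BAT) of mice kept warm or moved to the cold. Members were the protein-coding genes of the deposited count table whose symbols start as those of the subunits of complexes I to V do (Nduf, Sdh, Uqcr, Cox4 to Cox8 and Atp5 followed by the letters of the subunit series). This gave 84 of 50686 genes, with 35 in complex I, 4 in complex II, 8 in complex III, 20 in complex IV and 17 in complex V. A further 10 genes with matching symbols were processed pseudogenes and were left out. Counts were high enough to test 82 members, and Cox7b2 and Cox8c, whose products are known from other tissues, had nearly no counts in any mouse. The match also took in Atp5s, a factor associated with complex V that is not one of its subunits, and Cox7a2l, whose product is known from assemblies of complexes III and IV.

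RNA-sequencing of total RNA was done on 26 adult male C57BL/6J mice held for 2 weeks at thermoneutrality, given as 30 °C in the labels. The BAT is labelled supraclavicular. The 4 groups were WT30 with 7 control littermates (genotype WT), KO30 with 7 mice of the genotype Afadin KO, here called mice labelled KO, WT5 with 5 control littermates after 6 h at 5 °C, and KO5 with 7 mice labelled KO after the same 6 h. In the mice labelled KO, Cre under the adiponectin promoter acts on floxed Mllt4 (named Afdn here), the gene of Afadin, so that the deletion is meant for adipocytes and other cells of the tissue keep the gene. Whether the control littermates carried the floxed alleles is not given in the sources used here. Total counts per mouse ran from 12705969 to 25732258. Levels of a gene across mice are given in CPM, its count relative to the library size after scaling with TMM factors. Afdn had a mean of 196 ± 21.0 CPM (SD, n = 7) in WT30 and 195 ± 27.4 CPM (SD, n = 7) in KO30, so that the labels could not be checked by its level at thermoneutrality and the groups are called by their labels. After cold it had 73.5 ± 4.27 CPM (SD, n = 5) in WT5 and 58.5 ± 4.15 CPM (SD, n = 7) in KO5, and the log2 fold change between them was -0.33 (SE 0.09) and did not pass (edgeR, adjusted p = 0.116). These are levels of RNA. The authors also blotted Afadin protein in BAT, and they report that its rise with cold was reduced in the knockout mice. The tissue expressed Ucp1 in every mouse, with 551 to 1292 CPM in the 14 warm mice and 13014 to 20990 CPM in the 12 cold mice. Whether mice of 1 group shared a litter or a day is not given, so the p-values measure the spread between these mice.

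The respiratory chain passes electrons from NADH through complex I, or from succinate through complex II, to complex III and then to complex IV, which reduces oxygen. Complexes I, III and IV pump protons across the inner mitochondrial membrane, and complex V, the ATP synthase, makes ATP as protons flow back. Brown adipocytes have many mitochondria and dissipate the proton gradient as heat through Ucp1, so that their chain runs fast and they are known for little ATP synthase relative to the chain. Most subunits are encoded in the nucleus, and 13 are encoded by the mitochondrial genome. Several subunits of complex IV have paralogs that are used in different tissues, such as the heart and muscle forms Cox6a2, Cox7a1 and Cox8b.

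The members were among the most abundant transcripts of the tissue. Levels between genes were compared in TPM, which divides the counts by the exon length of each gene and brings all libraries to the same total. Over the 26 mice Cox8b, the heart and muscle form of subunit VIII, had the highest mean level at 3364 TPM and ranked 13 among all genes. It was followed by the catalytic beta subunit of ATP synthase, Atp5b, with 2654 TPM, the alpha subunit Atp5a1 with 2228 TPM, Cox6b1 with 2146 TPM and Cox6a1 with 2039 TPM. The median level was 799 TPM in complex II, 769 TPM in complex III, 490 TPM in complex IV, 334 TPM in complex I and 254 TPM in complex V. Complexes II and III had no member below 100 TPM, whereas complex IV had 5 members below 10 TPM, namely Cox8c, Cox7b2, Cox4i2, Cox6b2 and Ndufa4l2. The lowest tested member was Atp5g1, a gene of the c-ring of ATP synthase, with 3.72 TPM. The low levels of Atp5l (12.5 TPM), Ndufb2 (29.5 TPM) and Atp5g1 go with long annotated exons, of 6443, 5628 and 4912 bases, against 360 bases in Cox8b, and the length in use in this tissue was not measured. Atp5g1 was also low in counts before any division by length, with a mean of 137 per library. Atp5l had 605, Ndufb2 1243 and the other c-ring genes Atp5g2 and Atp5g3 241 and 1866. Some members share sequence with other annotated genes, such as pseudogenes or neighbours, and their counts are less certain: among stretches of 100 bases, the read length, 34.7% of those of Atp5g2 also occur in another annotated gene, 27.9% of Atp5o, 24.0% of Ndufb6, 24.0% of Ndufa13, 16.2% of Cox7c and 16.0% of Ndufb4, and 54 members share none.

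**Figure D1:**
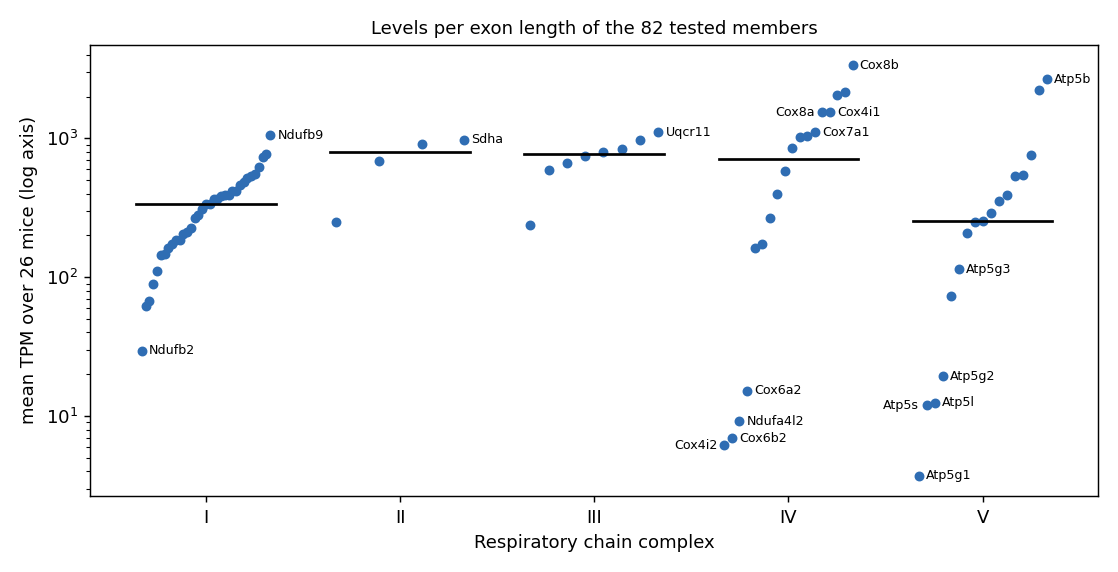
Mean level over the 26 mice of each of the 82 tested members, in TPM on a log axis, by complex. Points are genes in order of level and bars are medians of the tested genes. Cox8b is highest at 3364 TPM, complexes II and III lie in a narrow range, and the minor isoforms of complex IV and Atp5g1 lie far below the rest.

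The paralogs showed which form of each subunit dominated. Of the summed TPM of Cox7a1 and Cox7a2, Cox7a1 had 57.7 ± 2.70% in WT30 (SD, n = 7), 58.3 ± 2.46% in KO30 (SD, n = 7), 56.5 ± 1.69% in WT5 (SD, n = 5) and 55.1 ± 2.18% in KO5 (SD, n = 7). Cox8b had 68.2 ± 3.28%, 68.3 ± 0.890%, 69.7 ± 2.87% and 68.7 ± 2.35% of the sum with Cox8a in the same order of groups. Both heart and muscle forms were thus the larger share per exon length in all 4 groups. For Cox7a1 this rests on the annotated lengths of 535 bases against 944 bases in Cox7a2, since the log2 ratio of their counts was negative in all 4 groups, from a mean of -0.34 in KO30 to -0.52 in KO5. In contrast, Cox6a2 had 0.540 ± 0.868% of the sum with Cox6a1 in WT30 (SD, n = 7). It ran from 0 to 2.26% over these mice, with replicate 7 highest. In WT30, Cox4i2 had 0.474% of the sum with Cox4i1, Cox6b2 had 0.383% of the sum with Cox6b1 and Ndufa4l2 had 1.16% of the sum with Ndufa4. Among the c-ring genes, Atp5g3 had 83.9% of the sum with Atp5g2 in WT30.

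The first comparison asked how the members responded to 6 h of cold in control mice. Here 19 of the 82 tested members rose and 8 fell at an FDR below 0.05 (quasi-likelihood test of edgeR, p-values adjusted by Benjamini-Hochberg over 17286 genes). In the same comparison 31.6% of all tested genes rose and 33.4% fell, so the share of members that rose was below that of all genes. The median log2 fold change of the members was 0.10, against -0.01 for all tested genes, and was 0.0587 without WT30 replicate 7. In mice labelled KO, 65 members rose and 4 fell, where 33.7% of all tested genes rose and 34.9% fell, and the median log2 fold change of the members was 0.30 against -0.03 for all genes. Members passing in both genotypes numbered 22, all in the same direction, with 5 passing in control mice alone, 47 in mice labelled KO alone and 8 in neither. Each cold comparison shares its warm or cold mice with the label comparisons given further on. Groups did not overlap between WT5 and WT30 for 12 members that were higher and 5 that were lower, where 23.5% and 22.9% of all genes did so. Between KO5 and KO30 they did not overlap for 31 members that were higher and 3 that were lower, against 21.1% and 19.3% of all genes. The changes were small: in control mice 76 of the 82 members had a log2 fold change below 0.5 in size, or 92.7% against 46.1% of all genes, and in mice labelled KO 66 members, or 80.5% against 45.8%. In bulk tissue, a change in the number of cells of a type and a change in the RNA per cell cannot be told apart.

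These directions rest on the scaling. The TMM factors assume that most genes do not change, and mitochondrial rRNA took from 8.99% to 32.9% of the counts of a mouse. As a share of all counts the members summed to 3.24 ± 0.330% in WT30 (SD, n = 7), 3.31 ± 0.337% in KO30 (SD, n = 7), 3.19 ± 0.145% in WT5 (SD, n = 5) and 3.26 ± 0.537% in KO5 (SD, n = 7), which overlap in every pair of groups. As a share of the counts from the nuclear genome they summed to 4.94 ± 0.391% in WT30, 4.76 ± 0.154% in KO30, 4.49 ± 0.0758% in WT5 and 4.58 ± 0.359% in KO5. With library size alone as the scaling, 5 members rose and 9 fell in control mice, and 10 rose and 11 fell in mice labelled KO. Of all 17286 tested genes, 4165 then rose and 6243 fell in control mice, and 3223 rose and 8384 fell in mice labelled KO. With upper-quartile factors, 9 members rose and 18 fell in control mice, and 41 rose and 7 fell in mice labelled KO. All genes with a rise numbered 4751 and those with a fall 6579 in control mice, and 4694 and 7369 in mice labelled KO. Both scalings moved the median of all genes by more than 0.1. A change of scaling shifts all genes of a comparison by about the same amount, so the members are also given relative to that median, at 0.12 in control mice and 0.33 in mice labelled KO, and this distance says nothing of which scaling is right.

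By complex, complex III had the largest share of rises in both genotypes. In control mice 4 of its 8 members rose and none fell (median log2 fold change 0.16), and in mice labelled KO all 8 rose (median 0.41). In complex I, 8 of 35 rose and 3 fell in control mice (median 0.07), and 28 rose and none fell in mice labelled KO (median 0.29). In complex V, 6 of 17 rose and 2 fell in control mice (median 0.16), and 14 rose and 1 fell in mice labelled KO (median 0.36). In complex IV, 1 of 18 tested members rose and 2 fell in control mice (median 0.11), and 13 rose and 3 fell in mice labelled KO (median 0.35). Complex II had the lowest median in both genotypes: none of its 4 members rose and 1 fell in control mice (median -0.06), and 2 rose in mice labelled KO (median 0.12). Of all tested genes, 31.6% rose and 33.4% fell in control mice, and 33.7% rose and 34.9% fell in mice labelled KO. In control mice the share that rose was thus below that of all genes in complexes I, II and IV. It was close to that of all genes in complex V and above it in complex III. In mice labelled KO the share that rose was above that of all genes in every complex. The difference between complexes was not tested.

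**Figure D2:**
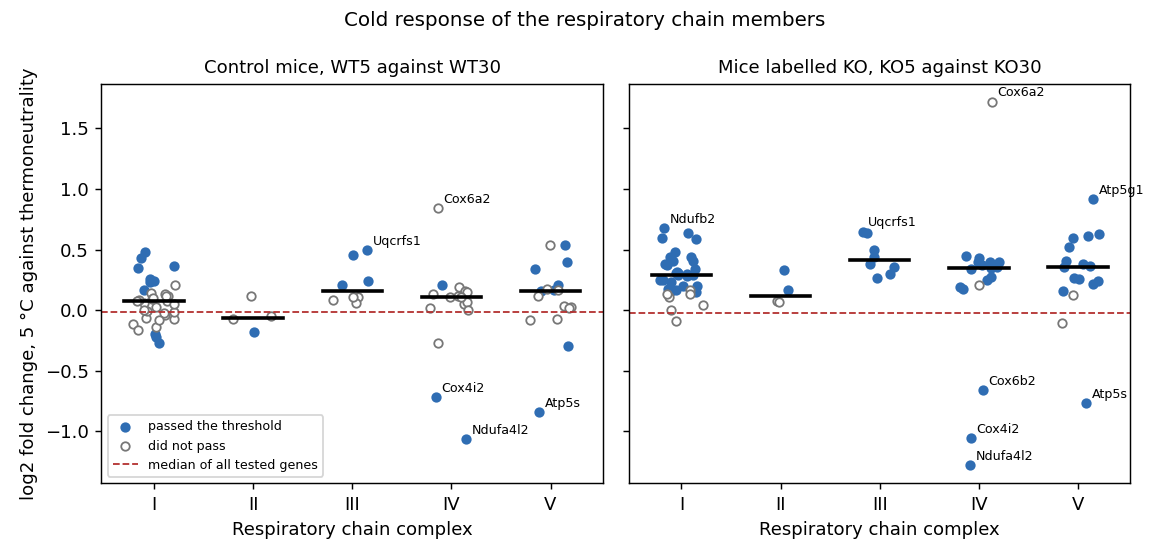
Log2 fold change of each tested member after 6 h at 5 °C, by complex, in control mice (left) and mice labelled KO (right). Filled points passed an FDR of 0.05, bars are medians of a complex, and the dashed line is the median of all 17286 tested genes. Most members sit a little above the line, Cox4i2, Ndufa4l2 and Atp5s far below it, and Cox6a2 above it without passing the test.

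The mean log2 CPM of the 8 complex III members was lowest at 8.32, had a median of 8.53 and was highest at 8.68 in WT30, and in WT5 it ran from 8.71 to 8.80, so the groups of control mice did not overlap. In KO30 it ran from 8.30 to 8.53 and in KO5 from 8.68 to 9.13, again without overlap. For complex I, WT30 ran from 7.33 to 7.64 and WT5 from 7.53 to 7.63, which overlap, and KO30 ran from 7.29 to 7.51 and KO5 from 7.50 to 7.93, which overlap slightly. For complex II all 4 groups overlapped, between 9.17 and 9.57. KO5 replicate 28 was the highest of all mice in complexes I, III, IV and V. In that mouse mitochondrial rRNA took 12.9% of the counts, the lowest share in KO5. Its part in these means was not tested.

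**Figure D3:**
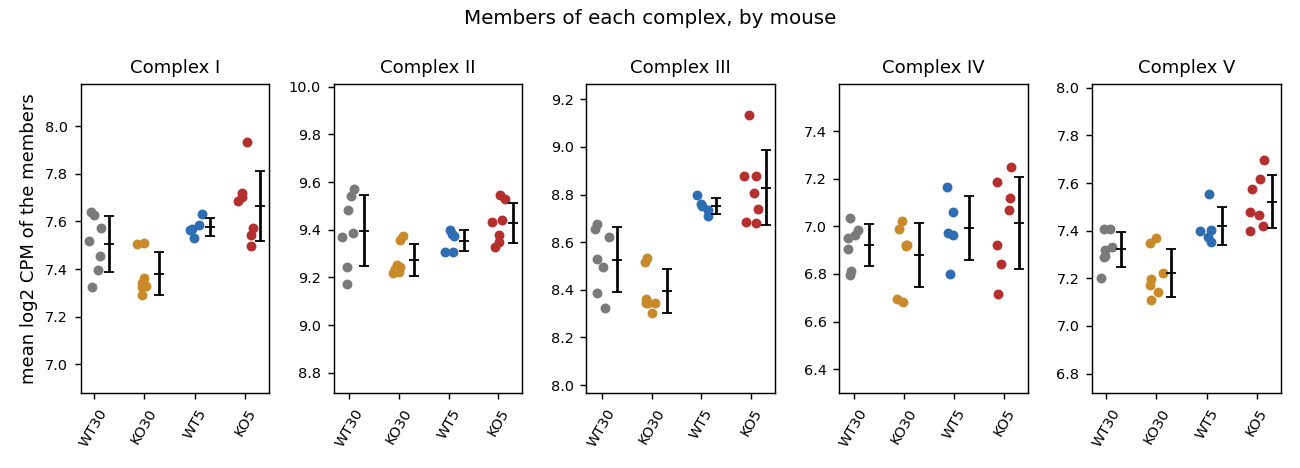
Mean log2 CPM (TMM-scaled, prior count 2) of the tested members of each complex in each of the 26 mice, by group, with the mean and SD of each group beside the points. All panels span the same number of log2 units. Both cold groups lie above both warm groups in complex III, and all groups overlap in complex II.

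Apart from Atp5g1 in mice labelled KO, described with the muscle markers, the largest rises past the threshold were of the Rieske protein and of accessory or membrane subunits. Uqcrfs1 (ENSMUSG00000038462.3, mm10 chromosome 13 from 30540308 to 30545362), the Rieske iron-sulphur protein that takes electrons from ubiquinol in complex III, had 363 CPM in the lowest, 431 in the median and 458 in the highest WT30 mouse. The WT5 mice had 583, 594, 598, 573 and 604 CPM. KO30 ran from 355 through 376 to 428 CPM, and KO5 from 546 through 582 to 722 CPM. Every cold mouse was above every warm mouse of either genotype. The log2 fold change was 0.50 in control mice (SE 0.07, adjusted p = 7.82e-07 in edgeR's quasi-likelihood test) and 0.65 in mice labelled KO (SE 0.07, adjusted p = 1.57e-09 in edgeR's quasi-likelihood test).

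Uqcrh (ENSMUSG00000063882.12, chromosome 4 from 116066965 to 116075071), the hinge protein of complex III, had 322, 360.5 and 405 CPM as the lowest, median and highest of WT30 and 508, 507, 477, 500.0 and 502 CPM in the WT5 mice. In KO30 it ran from 295 through 313 to 393 CPM and in KO5 from 465.8 through 483 to 664 CPM. It rose by a log2 fold change of 0.46 in control mice (SE 0.08) and 0.64 in mice labelled KO (SE 0.08). Again no cold mouse was as low as a warm one.

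Ndufb2 (ENSMUSG00000002416.13, chromosome 6 from 39592574 to 39603382), an accessory subunit of the membrane arm of complex I, had 55.5, 62.8 and 71.1 CPM as the lowest, median and highest of WT30. The WT5 mice had 92.5, 90.5, 81.96, 85.2 and 86.6 CPM. KO30 ran from 49.8 through 54.8 to 58.5 CPM and KO5 from 71.1 through 86.8 to 105 CPM. The log2 fold change was 0.48 in control mice (SE 0.08) and 0.68 in mice labelled KO (SE 0.07), the largest of complex I in both. Other accessory subunits of complex I followed: Ndufb6 with 0.43 and 0.64, Ndufa12 with 0.36 and 0.59, and Ndufa11 with 0.35 and 0.58 as log2 fold changes of control mice and mice labelled KO, all past the threshold.

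In complex V, Atp5l (ENSMUSG00000038717.8, chromosome 9 from 44912557 to 44920742), the g subunit of the membrane part, had 24.4, 28.4 and 32.7 CPM as the lowest, median and highest of WT30 and 45.2, 38.5, 43.6, 37.2 and 41.2 CPM in WT5. KO30 ran from 25.5 through 28.0 to 32.4 CPM and KO5 from 39.3 through 40.4 to 48.6 CPM. The log2 fold change was 0.54 in control mice (SE 0.08), the largest rise past the threshold there, and 0.59 in mice labelled KO (SE 0.07). Atp5mpl, a small membrane subunit, rose by 0.40 and 0.63 on the log2 scale, and Atp5f1, the b subunit of the stalk, by 0.34 and 0.52.

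Most other catalytic and core subunits had smaller changes, as had Cox5a and Cox4i1, nuclear-encoded subunits of complex IV. Ndufv1 and Ndufs1, core subunits of the matrix arm of complex I, had log2 fold changes of -0.08 and -0.01 in control mice, and neither passed. In mice labelled KO they had 0.14 and 0.20, and Ndufs1 passed. Other subunits of that arm fell in control mice: Ndufv3, an accessory subunit, fell by 0.27 in log2 units (SE 0.08), Ndufs3 fell by 0.22 (SE 0.07) and Ndufs7 fell by 0.20 (SE 0.07), and the same genes had -0.09, 0.04 and -0.000668 in mice labelled KO and did not pass. In complex II, the flavoprotein Sdha had -0.05 and 0.07 and did not pass in either genotype, the iron-sulphur subunit Sdhb had -0.07 and rose by 0.16 in mice labelled KO, and the membrane anchor Sdhc fell by 0.18 in control mice (SE 0.06) and had 0.06 in mice labelled KO. Uqcrc1, a core protein of complex III, had 0.06 in control mice and rose by 0.26 in mice labelled KO. Cox5a had 0.13 and rose by 0.37, and the main form of subunit IV, Cox4i1, had 0.15 and rose by 0.34. In complex V the alpha subunit Atp5a1 rose by 0.16 and 0.36, and the beta subunit Atp5b had 0.11 and rose by 0.26. With library size alone as the scaling, the log2 fold changes of Cox6a1, Cox7a1, Cox8a, Ndufs1, Sdha, Sdhb, Uqcrc1 and Atp5b in mice labelled KO turned negative, and that of Sdha passed in that direction.

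Promoter windows are printed for the members that hold a cAMP response element or an ERR element, which were chosen for display after the cold changes had been seen. RefSeq windows on GRCm38.p6 from 250 bases before to 50 bases after the start of a gene (300 bases) were at hand for 66 of the 84 members and for 17491 protein-coding genes. Motifs were searched on both strands. The cAMP response element TGACGTCA is read by factors of the cAMP pathway, which noradrenaline turns on in brown adipocytes in the cold. It occurred in the windows of 4 members, or 6.06%, against 2.34% of all windows: Uqcrfs1, Ndufb2, Ndufa11 and Ndufa10. The median cold log2 fold change of these 4 genes was 0.41 in control mice and 0.62 in mice labelled KO, and that of the other tested members with a window was 0.08 and 0.29. This difference was not tested, and the element was singled out with the fold changes known. Of these 4, Ndufa10 did not pass, with -0.07 (SE 0.07) in control mice and 0.11 (SE 0.06) in mice labelled KO. The cAMP response element contains a CpG, and member windows held a median of 19 CpG against 13 in all windows. The part of this in its frequency was not tested. The windows follow, 5′ to 3′ on the strand of the gene, with the element in capitals.
Uqcrfs1, chr13:30545267-30545566, minus strand: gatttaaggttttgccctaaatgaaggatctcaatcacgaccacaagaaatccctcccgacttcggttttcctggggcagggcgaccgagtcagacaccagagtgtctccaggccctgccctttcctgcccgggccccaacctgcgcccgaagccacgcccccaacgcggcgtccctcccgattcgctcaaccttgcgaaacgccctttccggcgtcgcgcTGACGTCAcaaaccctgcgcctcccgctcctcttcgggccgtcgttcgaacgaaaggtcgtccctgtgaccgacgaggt
Ndufb2, chr6:39592315-39592614, plus strand: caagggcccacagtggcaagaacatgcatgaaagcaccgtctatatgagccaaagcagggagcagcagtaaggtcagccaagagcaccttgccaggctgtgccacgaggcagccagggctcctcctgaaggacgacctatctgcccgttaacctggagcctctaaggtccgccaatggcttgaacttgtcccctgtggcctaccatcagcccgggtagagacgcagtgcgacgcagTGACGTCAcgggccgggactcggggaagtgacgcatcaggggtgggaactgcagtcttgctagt
Ndufa11, chr17:56717512-56717811, plus strand: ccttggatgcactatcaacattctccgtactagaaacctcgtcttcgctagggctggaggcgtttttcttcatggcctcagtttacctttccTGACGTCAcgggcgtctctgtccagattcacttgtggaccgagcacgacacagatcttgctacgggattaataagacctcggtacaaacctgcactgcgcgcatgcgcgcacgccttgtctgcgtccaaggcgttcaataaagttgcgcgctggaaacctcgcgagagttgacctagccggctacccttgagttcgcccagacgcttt
Ndufa10, chr1:92473709-92474008, minus strand: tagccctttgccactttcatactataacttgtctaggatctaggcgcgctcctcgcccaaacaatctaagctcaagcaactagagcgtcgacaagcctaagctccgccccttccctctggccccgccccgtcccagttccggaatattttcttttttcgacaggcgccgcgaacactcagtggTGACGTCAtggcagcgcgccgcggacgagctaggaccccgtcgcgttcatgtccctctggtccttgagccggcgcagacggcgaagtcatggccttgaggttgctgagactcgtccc
The element begins at base 222 of the window in Uqcrfs1, 237 in Ndufb2, 93 in Ndufa11 and 184 in Ndufa10, where the first 250 bases precede the RefSeq start. RefSeq starts can differ from those of the gene positions given above. In Uqcrfs1 the element lies inside the span given above for the gene.

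The ERR element TCAAGGTCA, which is bound by the estrogen-related receptors known to act on respiratory genes, occurred in 2 member windows (3.03%, against 0.33% of all windows). Both are printed with the element in capitals, where it reads TGACCTTGA because it lies on the other strand.
Atp5g3, chr2:73911277-73911576, minus strand: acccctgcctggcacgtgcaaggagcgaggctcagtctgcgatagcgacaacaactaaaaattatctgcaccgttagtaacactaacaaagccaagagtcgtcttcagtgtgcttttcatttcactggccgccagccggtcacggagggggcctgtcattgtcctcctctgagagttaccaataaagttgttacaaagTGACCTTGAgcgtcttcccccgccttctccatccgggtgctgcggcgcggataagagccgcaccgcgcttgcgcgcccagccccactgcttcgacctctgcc
Sdhd, chr9:50603800-50604099, minus strand: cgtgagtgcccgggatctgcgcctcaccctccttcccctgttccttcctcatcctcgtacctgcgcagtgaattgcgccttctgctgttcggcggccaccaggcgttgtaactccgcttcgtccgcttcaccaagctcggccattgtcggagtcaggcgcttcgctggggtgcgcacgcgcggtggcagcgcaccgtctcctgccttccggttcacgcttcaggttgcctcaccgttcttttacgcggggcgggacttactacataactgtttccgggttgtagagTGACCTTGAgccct
Atp5g3 had cold log2 fold changes of 0.18 in control mice and 0.61 in mice labelled KO, and Sdhd, a membrane anchor of complex II, had 0.12 and 0.33. Other motifs were more frequent in the members than in all windows and the members with and without them had close medians. The NRF1 motif GCGCATGC occurred in 10 windows (15.15%, against 3.6% of all), the ETS motif CCGGAAG that GABP binds in 15 (22.73% against 11.89%), the YY1 motif AAGATGGCG in 6 (9.09% against 1.94%) and the nuclear receptor half-site AGGTCA, which the ERR element contains, in 16 (24.24% against 14.52%). The median cold log2 fold change in control mice was 0.05 with and 0.10 without the NRF1 motif, and 0.08 with and 0.10 without the ETS motif. The NRF1, ETS and YY1 motifs also contain a CpG, and the part of this in their frequency was not tested. The windows of all genes were not limited to genes expressed in this tissue. A match is a description of these letters and not of binding.

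The largest falls were of the minor isoforms Ndufa4l2 and Cox4i2 and of Atp5s. Ndufa4l2 (ENSMUSG00000040280.10, chromosome 10 from 127514967 to 127517154), a paralog of the complex IV subunit Ndufa4 that is known for its rise in low oxygen, had 4.64, 5.06 and 7.09 CPM as the lowest, median and highest of WT30. The WT5 mice had 2.85, 2.30, 2.75, 2.96 and 2.13 CPM. KO30 ran from 4.29 through 6.01 to 7.36 CPM and KO5 from 1.61 through 2.27 to 3.33 CPM. No cold mouse reached the lowest warm mouse. In control mice its log2 fold change was -1.07 (SE 0.16, adjusted p = 1.95e-06 in edgeR's quasi-likelihood test), and in mice labelled KO it was -1.28 (SE 0.15, adjusted p = 1.66e-08 in edgeR's quasi-likelihood test).

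Cox4i2 (ENSMUSG00000009876.13, chromosome 2 from 152754173 to 152765037), the form of subunit IV known for oxygen sensing, had 2.02, 2.42 and 2.84 CPM as the lowest, median and highest of WT30 and 1.01, 0.975, 1.89, 1.66 and 1.56 CPM in WT5. KO30 ran from 2.30 through 2.77 to 3.47 CPM and KO5 from 0.953 through 1.33 to 1.91 CPM. The cold and warm mice did not overlap in either genotype. Its log2 fold change was -0.72 (SE 0.17) for WT5 against WT30 and -1.06 (SE 0.16) for KO5 against KO30, and both passed. Cox6b2, a form of subunit VIb known from testis, had 2.20, 3.81 and 5.41 CPM in WT30 and 3.26, 3.41, 3.22, 2.96 and 2.71 CPM in WT5, with a log2 fold change of -0.27 (SE 0.20) that did not pass. It ran from 2.79 through 3.71 to 4.66 CPM in KO30 and from 1.61 through 2.42 to 3.35 CPM in KO5, where it fell by 0.66 (SE 0.18) with overlapping groups. Atp5s, the factor that is no subunit, fell by 0.84 (SE 0.14) from WT30 to WT5 and by 0.77 (SE 0.12) from KO30 to KO5 in log2 units, from a mean of 13.1 to 7.25 CPM and from 12.5 to 7.35 CPM.

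Ratios of paralogs within a library hardly depend on the scaling, and 9 ratios were each tested in 4 comparisons with exact two-sided permutation tests over mice, adjusted by Benjamini-Hochberg over the 36 tests. The log2 ratio of Cox4i2 to Cox4i1 fell by 0.92 in control mice (exact p = 0.00126, adjusted p = 0.00568) and by 1.40 in mice labelled KO (exact p = 0.000583, adjusted p = 0.00524). That of Ndufa4l2 to Ndufa4 fell by 1.18 and 1.63 with the same p-values. These are the smallest p-values that 5 mice against 7 and 7 against 7 allow, and cold and warm mice did not overlap. The ratio of Cox6b2 to Cox6b1 fell by 1.06 in mice labelled KO (exact p = 0.00117, adjusted p = 0.00568) and had a difference of -0.38 in control mice (exact p = 0.0770, adjusted p = 0.198). Cox4i2 and Ndufa4l2 are known from pericytes and smooth muscle of small vessels. The 10 markers of those cells summed to 702 to 939 CPM in WT30, 619 to 733 CPM in WT5, 736 to 881 CPM in KO30 and 562 to 668 CPM in KO5. Of the 10 markers, 2 rose and 5 fell in control mice, where 31.6% of all tested genes rose and 33.4% fell. In mice labelled KO 3 of them rose and 6 fell, where 33.7% of all tested genes rose and 34.9% fell. The part of these cells in the fall of Cox4i2 and Ndufa4l2 was not tested.

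**Figure D4:**
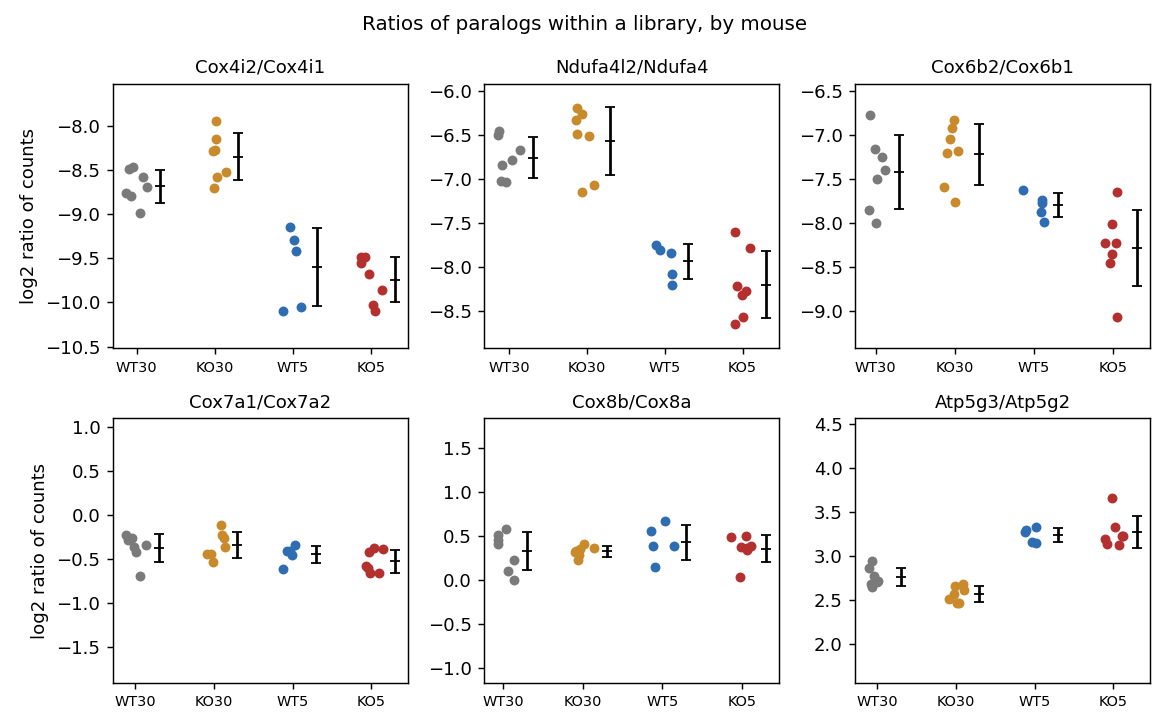
Log2 ratio of the counts of 2 paralogs in each of the 26 mice, by group, with the mean and SD of each group beside the points, all panels spanning 3 log2 units. Cold mice lie below warm mice without overlap for Cox4i2/Cox4i1 and Ndufa4l2/Ndufa4, above them for Atp5g3/Atp5g2, and among them for Cox7a1/Cox7a2 and Cox8b/Cox8a.

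For the abundant heart and muscle forms no cold change of the ratio passed the threshold. The log2 ratio of Cox7a1 to Cox7a2 had a cold difference of -0.08 in control mice (exact permutation p = 0.380, adjusted p = 0.622) and -0.19 in mice labelled KO (exact permutation p = 0.0268, adjusted p = 0.0877), and the latter was -0.29 without the 6 libraries rich in muscle markers named below (exact permutation test, adjusted p = 0.0485). Cox7a1 itself had 188, 266 and 297 CPM as the lowest, median and highest of WT30 and 281, 278, 268, 242 and 261 CPM in WT5, which overlap, with a log2 fold change of 0.06 (SE 0.09). It ran from 220 through 231 to 251 CPM in KO30 and from 237 through 274 to 307 CPM in KO5 and rose by 0.25 (SE 0.08). The log2 ratio of Cox8b to Cox8a had a cold difference of 0.10 in control mice (exact permutation p = 0.409, adjusted p = 0.640) and 0.03 in mice labelled KO (exact permutation p = 0.693, adjusted p = 0.859). Cox8b had log2 fold changes of 0.11 (SE 0.11) and 0.21 (SE 0.10), and neither passed.

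Cox6a2 and Atp5g1 were highest in the libraries with the most RNA of skeletal muscle markers. The summed CPM of 18 skeletal muscle markers, such as Acta1, Ckm and Mylpf, ran from 49.0 to 20476 over the mice, and 6 libraries had more than 5000: WT30 replicate 7, WT5 replicates 16 and 21, and KO5 replicates 22, 24 and 25. Cox6a2, the muscle form of subunit VIa, had 8.30 to 26.5 CPM in these 6 libraries and 0 to 6.23 CPM in the other 20. Atp5g1 had 10.8 to 22.6 CPM in the 6 and 3.07 to 9.32 CPM in the other 20. Both genes were thus higher in each of the 6 libraries than in any of the 20. The log2 fold change of Cox6a2 was 0.84 in control mice (SE 1.11) and 1.72 in mice labelled KO (SE 1.05), the largest of all members, and neither passed. That of Atp5g1 was 0.54 in control mice (SE 0.35) and 0.91 in mice labelled KO (SE 0.32, adjusted p = 0.0149 in edgeR's quasi-likelihood test). Without the 6 libraries, Atp5g1 had 0.30 and 0.39 (adjusted p = 0.122 in edgeR's quasi-likelihood test) and Cox6a2 had 0.01 and -1.42, none past the threshold. Cox7a1 and Cox8b, in contrast, had 188 to 296 and 468 to 613 CPM in the 6 libraries and 220 to 307 and 372 to 710 CPM in the other 20. Without the 6 libraries 10 members rose and 9 fell in control mice, and 66 rose and 4 fell in mice labelled KO. Of all 17533 genes tested in that fit, 5174 rose and 5485 fell in control mice, and 5540 rose and 5917 fell in mice labelled KO. In control mice the rises of Atp5a1, Atp5h, Atp5j2, Ndufa1, Ndufa5, Ndufb5, Ndufs4, Uqcrb and Uqcrc2 no longer passed, with 3 mice left in WT5 and a log2 fold change of 0.13 in Atp5a1. With the muscle markers as a covariate and all mice kept, 19 members rose and 8 fell in control mice, where 5539 and 5850 of 17286 tested genes did.

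**Figure D5:**
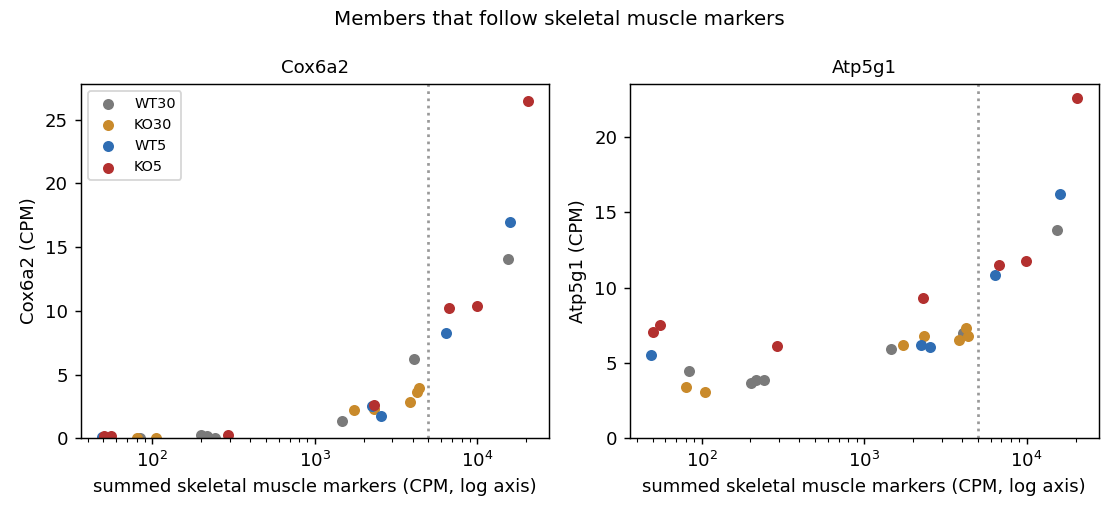
CPM of Cox6a2 (left) and Atp5g1 (right) in each of the 26 mice against the summed CPM of 18 skeletal muscle markers on a log axis, coloured by group. The dotted line marks 5000 CPM. The 6 libraries to its right, from WT30, WT5 and KO5, have the highest values of both genes.

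The c-ring of ATP synthase is encoded by 3 genes with the same mature protein, and they moved apart. Atp5g3 (ENSMUSG00000018770.9, chromosome 2 from 73908447 to 73911326) had 85.6, 97.1 and 109 CPM as the lowest, median and highest of WT30 and 116, 101, 115, 109 and 114 CPM in WT5. KO30 ran from 82.5 through 84.5 to 97.9 CPM and KO5 from 109 through 130.1 to 164 CPM, so only the mice labelled KO did not overlap. Atp5g2 (ENSMUSG00000062683.11, chromosome 15 from 102662864 to 102672352) had 13.2, 14.7 and 15.3 CPM in WT30 and 11.9, 11.2, 11.7, 12.3 and 11.4 CPM in WT5, a log2 fold change of -0.30 (SE 0.07) that passed. It ran from 13.1 through 14.9 to 16.2 CPM in KO30 and from 11.9 through 13.4 to 16.2 CPM in KO5, a log2 fold change of -0.10 (SE 0.07) that did not pass. The log2 ratio of Atp5g3 to Atp5g2 rose by 0.48 in control mice (exact permutation p = 0.00126, adjusted p = 0.00568) and by 0.70 in mice labelled KO (exact permutation p = 0.000583, adjusted p = 0.00524), without overlap in either. It was also lower by 0.20 in KO30 than in WT30 (mean 2.57 ± 0.0881 against 2.77 ± 0.105, SD, n = 7 each, exact permutation p = 0.00233, adjusted p = 0.00932), with groups that overlapped, and was the sole ratio past the threshold between the labels. Between KO5 and WT5 the difference was 0.03 (exact permutation p = 0.833, adjusted p = 0.938). The log2 ratio of Atp5g1 to Atp5g2 rose by 0.96 in mice labelled KO (exact permutation p = 0.000583, adjusted p = 0.00524) and by 0.53 without the 6 libraries rich in muscle markers (exact permutation test, adjusted p = 0.168). Since Atp5g2 shares more than any other member with other genes, its counts are the least certain of the 3.

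Between mice labelled KO and control mice, no member passed at thermoneutrality, where 0.081% of all tested genes did. DESeq2 also called 0 members. At an unadjusted p below 0.05 there were 29 of the 82 members, beside 1322 of the 17286 tested genes. That number of members was 1 with library size alone, 5 with upper-quartile factors and 6 with no filter on low counts (2142, 1256 and 1944 of the genes tested). It was also 54 without WT30 replicate 3, and from 6 to 11 without WT30 replicate 1, 2 or 6 or without KO30 replicate 8, 9, 10, 11 or 12. The lowest adjusted p was 0.389 (edgeR's quasi-likelihood test), of Cox5a, with 200.1 to 222 CPM in KO30 and 208 to 268 CPM in WT30 and a log2 fold change of -0.18 (SE 0.06). Ndufb4 had -0.19 (SE 0.07) and Ndufb2 had -0.20 (SE 0.07), the next smallest unadjusted p-values. The fold changes pointed the same way in 77 of the 82 members, all of them negative, beside 9671 negative of the 17286 tested genes. Every member of complexes I, II and III was among the 77. The median of the members was -0.12 against -0.02 for all genes. With library size alone the median of the members was 0.03 and that of all genes 0.13, so the direction of the members turned with the scaling. Relative to the median of all genes, the members stood at -0.105 with TMM factors, -0.0988 with library size alone and -0.104 with upper-quartile factors. As above, this distance says nothing of which scaling is right. No member was higher in every KO30 mouse than in every WT30 mouse, or lower, where 0.174% and 0.0752% of all genes were.

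After cold no member passed between KO5 and WT5, where 0.139% of all genes did. An unadjusted p below 0.05 was found for 3 members, beside 2323 of the 17286 tested genes. The members numbered 12 without KO5 replicate 22 or 27, and 5 without replicate 25. DESeq2 also called 0. The lowest adjusted p was 0.160 (edgeR's quasi-likelihood test), of Atp5g3, with a log2 fold change of 0.27 (SE 0.08), and of Atp5g2, with 0.23 (SE 0.07). Ndufs4 had 0.14 (SE 0.07). The fold changes were positive in 78 of the 82 members, beside 9472 of the 17286 tested genes, with a median of 0.09 against 0.02 for all genes. Without KO5 replicate 28 that median of the members was 0.0412. No member had groups that did not overlap, where 0.33% of all genes were higher in every KO5 mouse and 0.781% were lower.

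The cold responses of the 2 genotypes were compared directly as their difference. No member passed, where 1.16% of all tested genes did. An unadjusted p below 0.05 was found for 46 of the 82 members, beside 2804 of the 17286 tested genes. The number of members was 1 with library size alone and 12 with upper-quartile factors, beside 2692 and 2629 of all genes. It was 23 without KO5 replicate 28, 62 without KO5 replicate 27, and from 25 to 30 without WT30 replicate 1, 2 or 6 or WT5 replicate 19. The larger number of calls in mice labelled KO is therefore not shown to be a different response of any member. The difference was positive in 79 of the 82 members and in 9797 of the 17286 tested genes. Its median was 0.21 in the members against 0.04 for all genes (0.0162 against -0.15 with library size alone). The 3 exceptions among the members were Cox4i2, Cox6b2 and Ndufa4l2, which fell further in mice labelled KO, by differences of -0.34, -0.39 and -0.21 that did not pass. Atp5g3 had the smallest p, with a difference of 0.43 (SE 0.11, adjusted p = 0.0562 in edgeR's quasi-likelihood test). DESeq2 and edgeR's revised method each called 1 member, Atp5g3. Ndufb4 followed with 0.33 (SE 0.10) and Ndufs4 with 0.27 (SE 0.09). This difference uses the same mice as the 4 comparisons above, so it adds no independent evidence to them. Of 6 nuclear-retained RNAs checked, none passed between the labels at thermoneutrality and 1, Neat1, was lower in KO5 than in WT5. The difference of the cold responses passed for 2 of the 6, both negative. Its median over the 6 was -0.41, and it was positive in 1. Together the 6 RNAs summed to 8978 to 10606 CPM in WT30, 10450 to 11804 CPM in KO30, 14915 to 16344 CPM in WT5 and 10416 to 13664 CPM in KO5. All 6 red blood cell markers rose with cold in mice labelled KO, where 33.7% of all tested genes rose, and none passed in control mice. These markers summed to 233 to 1121 CPM in WT30, 289 to 609 CPM in KO30, 417 to 685 CPM in WT5 and 517 to 1498 CPM in KO5. The part of either in the differences of the members was not tested.

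Other genes of the pathway, which help to build the complexes or carry electrons between them, were also followed. Of 47 tested assembly factors, 24 rose and 13 fell in control mice and 27 rose and 8 fell in mice labelled KO, with medians of 0.18 and 0.25 on the log2 scale, beside 0.10 and 0.30 for the subunits. Over all tested genes 31.6% rose and 33.4% fell in control mice, and 33.7% and 34.9% did in mice labelled KO. Ndufaf4, which helps to build complex I, had log2 fold changes of 1.43 and 1.38, Ttc19, which acts on complex III, had 1.27 and 1.07, and Cox10, which makes the heme of complex IV, had 1.18 and 1.14, while Sdhaf1, an assembly factor of complex II, fell by 0.94 and by 0.57. Of 5 subunits and carriers that the symbol match leaves out, 3 rose and 1 fell in control mice, and 4 rose and 1 fell in mice labelled KO. Cytochrome c (Cycs), the electron carrier between complexes III and IV, rose by 0.93 in control mice and 1.24 in mice labelled KO, and Ndufab1, a subunit of complex I that the symbol match leaves out, by 0.80 and 0.86. These were chosen by their values for display. Of the 13 mitochondrially encoded subunits, 8 had enough counts in this table to be tested, and 2 fell in control mice and 3 rose in mice labelled KO. The catalytic subunit of complex IV, mt-Co1, had -0.30, which passed, and 0.05.

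The members share features of gene structure that the match on symbols did not use. The tested members had a median annotated exon length of 1559.5 bases, against 4480.5 bases over 13662 tested protein-coding genes. A protein-coding gene on the opposite strand started within 1000 bases of the start of 31 of the 84 members, or 36.9%, against 10.83% of 21841 protein-coding genes. The closest such pairs were Ndufs1 with Eef1b2, 8 bases apart, Ndufa7 with Rps28, 10 bases apart, and Ndufb9 with Tatdn1, 18 bases apart. Atp5j and Gabpa, the gene of the ETS factor GABP alpha, start 700 bases apart. These distances do not tell a gap from an overlap, and 102 of the 100-base stretches of Atp5j also occur in Gabpa. The libraries keep strand, but whether the counting used it is not given in the sources used here, so reads over such pairs may be shared where the genes overlap.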

How the data were processed

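The authors sequenced total RNA from BAT as stranded, rRNA-depleted libraries (100-base single-end reads), aligned the reads to mm10 with STAR 2.5.2b and counted them per GENCODE M13 gene with featureCounts 1.5.2, and the deposited table holds these raw counts per gene and library. Whether strand was used in counting is not given in the sources used here. Symbols, positions and exon lengths were taken from GENCODE M21 (GRCm38.p6), and 50462 of 50686 identifiers had a symbol. Counts were scaled with TMM factors, filtered by group with filterByExpr and fitted with edgeR 4.0.16 in R 4.3.3 on 4 group means without covariates, and the quasi-likelihood test was applied with Benjamini-Hochberg adjustment over 17286 genes at an FDR of 0.05. Paralog ratios (prior count 0.5) were compared with exact two-sided permutation tests over mice. Tested on simulated data for KO30 against WT30 with 200 of 15827 genes changed by a log2 fold change of 1, the fit found 178 of them and called 10 others. In the data 81 of the 82 members differed by less than 0.5 there, and the simulation does not show how often such changes are found. Its spread followed the trend over expression levels and not the spread of each gene.

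The members and gene lists were chosen with earlier results of these data known. Named were the paralog families, a list of core subunits to which Cox4i1 and Cox5a were added for complex IV, and Atp5s. Also named were the 5 largest rises and falls with a mean of at least 1 CPM in each cold comparison. The 3 members with the smallest p in the label comparisons and in the difference of the cold responses were named as well. The result of 1 core subunit is not reported here, and the inhibitor Atpif1, which the naming rule also held, has a symbol that the match leaves out and was not analysed here. Ndufs3, Ndufs7, Sdhc, Sdhd and Ndufa10 and the genes that are no members were named after their values had been seen. Alternatives were library size alone, upper-quartile factors, other filters, robust and revised quasi-likelihood fits, DESeq2 1.42.0, each mouse left out and, added after seeing the data, fits that leave out the libraries rich in muscle markers or take those markers as a covariate. Total counts of at least 12705969 per library make counting error small for most members, and intervals for counting error were not used since mice were the replicates.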

Additional observations from a re-analysis of the deposited data

Results flagged for a closer look

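In 13 of 192 groups of mice tested, 1 mouse lay far from the others of its group, judged by its gap to the nearest mouse over the range of the group (Dixon's criterion at the 95% level), where chance gives about 1 in 20. In log2 units, WT5 replicate 16 had the highest mean of complex V at 7.56, with the next at 7.40. WT30 replicate 7 had the lowest log2 ratio of Cox7a1 to Cox7a2 at -0.70, with the next at -0.42. KO5 replicate 27 had the lowest log2 ratio of Cox8b to Cox8a at 0.0327, with the next at 0.34. KO5 replicate 25 had the highest log2 ratio of Atp5g3 to Atp5g2 at 3.66, with the next at 3.33.

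In CPM, Atp5g1 was highest in WT30 replicate 7 at 13.9, with the next mouse at 7.01, and in KO5 replicate 25 at 22.6, with the next at 11.8. Cox6a2 was highest in KO5 replicate 25 at 26.5 CPM, with the next at 10.4 CPM. Both libraries are among the 6 rich in muscle markers. KO5 replicate 28 had the highest level of Cox4i1 at 1397 CPM, with the next at 1176 CPM, of Cox6a1 at 906 CPM, with the next at 692 CPM, and of Uqcrh at 664 CPM, with the next at 532 CPM. The lowest levels that stood apart in WT5 were Atp5a1 in replicate 19 at 3086 CPM against 3202 CPM, Ndufs4 in replicate 17 at 172 CPM against 181 CPM, and Uqcrh in replicate 18 at 477 CPM against 500.0 CPM.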

How the results depend on the processing

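No paired analysis was possible because the groups share no replicate numbers. The calls over all genes with other scalings and without the libraries rich in muscle markers are given above beside those of the members. With library size alone as the scaling, 5 members rose in control mice, 10 rose and 11 fell in mice labelled KO, and the medians of the members were -0.0188 (cold, control mice), -0.0137 (cold, mice labelled KO), 0.0272 (KO30 against WT30) and 0.0162 (difference of the cold responses). The summed level of the members was then 33101 CPM in KO30, 31858 CPM in WT5 and 32580 CPM in KO5. The cold log2 fold changes in mice labelled KO turned negative for Cox6a1 (-0.0353), Cox7a1 (-0.0708), Cox8a (-0.13), Ndufs1 (-0.12), Sdha (-0.25), Sdhb (-0.16), Uqcrc1 (-0.0514) and Atp5b (-0.0563). With upper-quartile factors, 9 members rose and 18 fell in control mice and 41 rose and 7 fell in mice labelled KO, with medians of -0.00112 and 0.15. Without the 6 libraries rich in muscle markers, 10 members rose in control mice, and the cold differences in mice labelled KO were -0.29 for Cox7a1/Cox7a2 and 0.53 for Atp5g1/Atp5g2. The difference of the cold responses passed for 1 member, Atp5g3, with the revised quasi-likelihood fit, with DESeq2 and with muscle markers as a covariate. With each mouse left out in turn, that count ran from 0 to 1 (Atp5g3 without WT30 replicate 3 or without KO5 replicate 22, 23 or 26, and Ndufb4 without WT30 replicate 7), the rises from 14 to 27 in control mice and from 58 to 68 in mice labelled KO, and the log2 ratio differences from -0.59 to -0.35 for Cox6b2/Cox6b1 between KO5 and WT5, from 0.64 to 1.11 for Atp5g1/Atp5g2 in cold control mice and from 0.27 to 0.39 for Cox4i2/Cox4i1 between KO30 and WT30. The cause of these changes was not tested. Where no call was involved, the sign changed in 38 of 540 ratio values and in 27 of 1619 values of named genes.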
